A study of Arabidopsis thaliana with 64 samples.

Results

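EARLY FLOWERING 3 (ELF3, locus AT2G25930) was followed through every RNA library and every peak list of a study of Arabidopsis thaliana seedlings grown at different temperatures. It is 1 of the 32833 loci of the count files, and it was taken by its locus tag, not by its values. The RNA set held 38 libraries of 16 lines, 3 of them at 12 °C, 15 at 22 °C and 20 at 27 °C. Seedlings grew for 10 days in days of 8 h light and 16 h dark, and each library came from 70 mg of pooled seedlings. Chromatin immunoprecipitation (ChIP) gave 25 peak lists, 2 of them INPUT without pull-down and the others from pull-down of tagged ELF3 proteins. The ChIP seedlings grew at 17 or 22 °C and either stayed there or spent 2 h at 27 °C from zeitgeber hour 8.

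Every sample is labelled as cultivar Col-0. The untransformed RNA lines were Col-0 (3 libraries), elf3-1 (2) and elf4-2 (2). Overexpressors were StELF3-ox (3), BdELF3-ox (5), ELF4-ox (2) and ELF3-ox (3), the first pair carrying ELF3 of potato and of the grass Brachypodium. The crosses were elf4-2 X ELF3-ox (2) and elf3-1 X ELF4-ox (2). Under the ELF3 promoter stood ELF3pro::BdELF3 (1) and the ELF3pro::ELF3-Q constructs, named for the length of the polyglutamine stretch of ELF3. ELF3pro::ELF3-Q0 came as lines #15 (3) and #2 (2), ELF3pro::ELF3-Q7 as lines #6 (2) and #17 (1), and ELF3pro::ELF3-Q21 as lines #7 (3) and #23 (2). The ChIP lists were of ELF3pro::ELF3-MYC in elf3-1 or elf3-1 x ELF4-ox plants (5), ELF3pro::BdELF3 (3) and ELF3pro::ELF3-BdPrD (4). The last is ELF3 with a Brachypodium prion-like domain. Others were of ELF3pro::ELF3-Q15 and ELF3pro::ELF3-Q20 (4), of StELF3-ox, BdELF3-ox and ELF3-ox (7), and INPUT of Col-0 and ELF3-OX (2). The labels do not state the promoter of the overexpressors, nor whether the transgenic lines other than the crosses and the ELF3-MYC lines carry an elf3 mutation. The labels call every sample a single one, so the p-values measure only the spread between these libraries, which may be technical.

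ELF3 is the scaffold of the evening complex, in which it joins ELF4 and the DNA-binding protein LUX. The complex is known to repress clock and growth genes in the evening and early night, among them GI, PRR7, PRR9, LUX and the growth promoters PIF4 and PIF5. Its prion-like domain, which includes a run of glutamines, is known to take part in the loss of ELF3 activity in warmth. The elf3-1 allele is a nonsense mutation, so tags at the 3′ end of the transcript do not check it. Likewise, a transgene with another 3′ end may give few or no tags at AT2G25930, whereas one that keeps the native 3′ end gives them. Tags of a transgene cannot be told apart from those of the native gene.

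Gene counts per library ran from 4381010 to 25649275, and ELF3 itself was counted 32 to 6768 times. Levels are given as CPM, the count of a locus relative to the scaled total of its library. The green tissue markers RBCS1A, LHCB1.3, LHCB2.1 and LHCA1 were present in all 38 libraries. The summed level of 8 root markers ran from 135 to 443 CPM in 36 libraries but was 44.5 CPM in BdELF3-ox 27C replicate 2 and 30.9 CPM in ELF3pro::BdELF3 27C replicate 1, so these 2 libraries stand apart. The sample titles carry 4 number prefixes (177, 178, 181 and 184) that run across lines and temperatures unevenly, and the prefix was a term of every fit unless said otherwise. Against prefix 177 the fitted ELF3 level was lower by a log2 difference of -0.34 for 178, -0.92 for 181 and -1.26 for 184.

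ELF3 tags were most abundant in the ELF3pro::ELF3-Q lines and least abundant in the lines with Brachypodium ELF3. The mean level was 208 ± 136 CPM (SD, n = 3) in Q0 line #15, 144 ± 12.7 (n = 2) in Q0 line #2, 121 (n = 1) in Q7 line #17 and 114 ± 5.66 (n = 2) in Q21 line #23. It was 53.2 ± 1.41 (n = 2) in Q7 line #6 and 50.5 ± 12.3 (n = 3) in Q21 line #7. These 6 lines filled the first 6 places of the 16. Next came elf4-2 X ELF3-ox at 39.4 ± 2.90 CPM (n = 2), elf4-2 at 29.0 ± 9.55 (n = 2), ELF3-ox at 27.2 ± 15.5 (n = 3) and ELF4-ox at 26.0 ± 8.41 (n = 2). Col-0 stood at 23.2 ± 6.38 CPM (n = 3), elf3-1 at 22.1 ± 6.51 (n = 2) and elf3-1 X ELF4-ox at 21.8 ± 5.09 (n = 2). The lowest were StELF3-ox at 13.6 ± 4.01 CPM (n = 3), BdELF3-ox at 10.5 ± 3.33 (n = 5) and ELF3pro::BdELF3 at 9.77 (n = 1). Of the 15 pairs of lines next to each other in this order, 10 had overlapping libraries and 5 did not. Steps without overlap lay between Q0 line #2 and Q7 line #17, Q7 line #17 and Q21 line #23, and Q21 line #23 and Q7 line #6. So did those between elf4-2 X ELF3-ox and elf4-2 and between elf3-1 X ELF4-ox and StELF3-ox. The lines were ordered by their means and most held few libraries, so a step without overlap does not show that its lines differ. The lines differed in ELF3 as a whole (edgeR quasi-likelihood F = 23.6, Benjamini-Hochberg adjusted p = 1.04e-06). This was the fourth smallest p of the 19587 loci tested, of which 723, or 3.69%, were called.

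**Figure D1:**
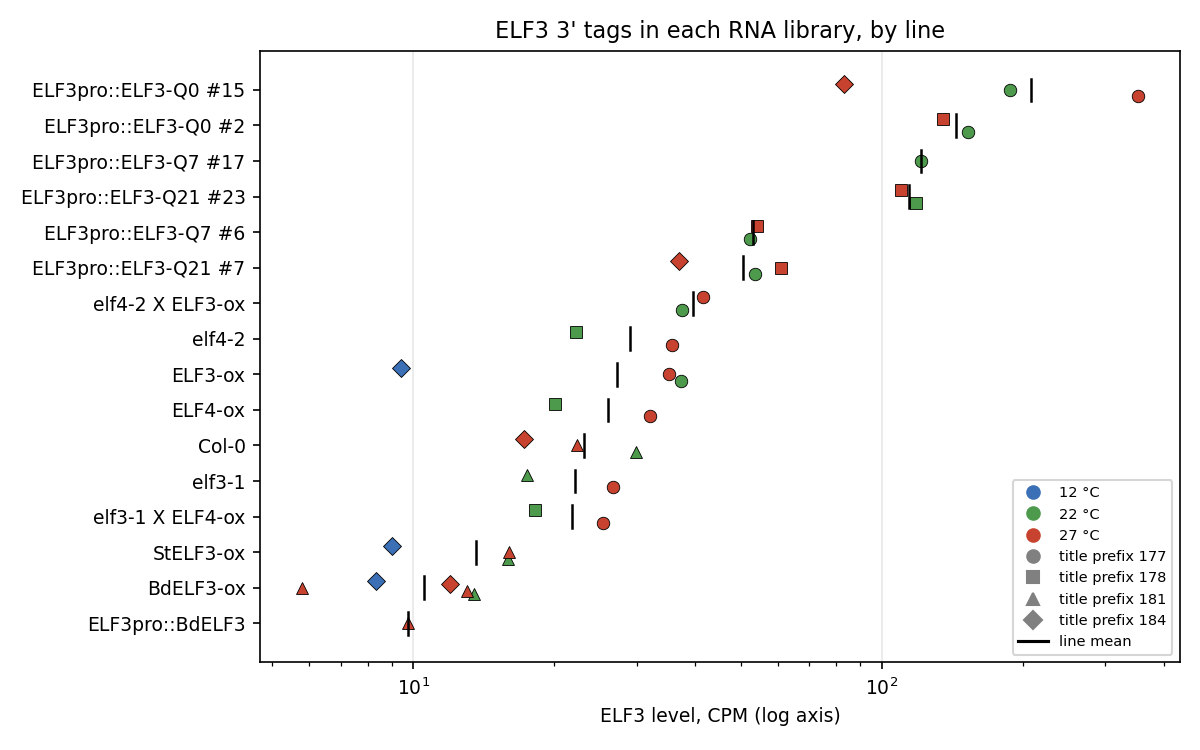
ELF3 level in CPM on a log axis in each of the 38 RNA libraries, 1 point a library, with colour for growth temperature, marker shape for the title prefix and a bar at the line mean. The ELF3pro::ELF3-Q libraries lie between 37.0 and 352 CPM, and the highest library of any other line is at 41.5 CPM.

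Of the 5 ELF3pro::ELF3-Q0 libraries, 4 held the highest ELF3 levels of the set. Line #15 gave 188 CPM at 22 °C and 352 and 83.1 CPM in its replicates at 27 °C. Line #2 gave 153 CPM at 22 °C and 135 CPM at 27 °C. All 5 lay above every library outside the ELF3pro::ELF3-Q lines. The 27 °C replicates of line #15 differed 4.24-fold, far beyond counting error, since their 95% Poisson intervals were 343 to 360 and 79.3 to 87.0 CPM. Their title prefixes also differed, 177 for the higher and 184 for the lower.

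The Q7 and Q21 constructs each had 1 line of higher and 1 line of lower ELF3 level. Q7 line #17 gave 121 CPM at 22 °C, its only library. Q7 line #6 gave 52.2 CPM at 22 °C and 54.2 CPM at 27 °C. The lines of Q7 did not overlap. Q21 line #23 gave 118 CPM at 22 °C and 110 CPM at 27 °C. Q21 line #7 gave 53.6 CPM at 22 °C and 61.0 and 37.0 CPM in its 27 °C replicates. The lines of Q21 did not overlap either. With so few libraries a line, such a gap can arise without a line difference. Its share over all loci is not given, and neither difference passed the adjusted threshold in edgeR. The library at 37.0 CPM is the 1 of the 13 ELF3pro::ELF3-Q libraries that did not exceed every library of the other lines.

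Against Col-0, the 6 ELF3pro::ELF3-Q lines were higher on average by a log2 difference of 1.38 ± 0.32 (SE, n = 13 and 3 libraries), a 2.60-fold difference with a 95% interval of 1.64 to 4.13. All 13 libraries lay above all 3 of Col-0, as did those of 1.49% of the loci tested. The edgeR test did not pass the threshold (adjusted p = 0.230), in a comparison in which 10 loci, or 0.0511%, were called. The adjusted p was 0.00833 with DESeq2 and 0.00639 without BdELF3-ox 27C replicate 2, which is in neither group but enters the estimate of the spread. Against elf3-1 the same lines were higher by 2.02 ± 0.33 (SE, n = 13 and 2), and this difference was called (adjusted p = 0.00156), as were 0.322% of loci as higher. Without elf3-1 27C replicate 1 it was 1.61 with an adjusted p of 0.460. Against the mean of the 10 other lines, a reference chosen after the values were seen, the difference was 2.03 ± 0.17 (SE, n = 13 and 25, adjusted p = 6.90e-07), 4.07-fold with an interval of 3.18 to 5.22. In that comparison 3.27% of loci were called higher, and ELF3 had the smallest p of all loci tested.

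**Figure D2:**
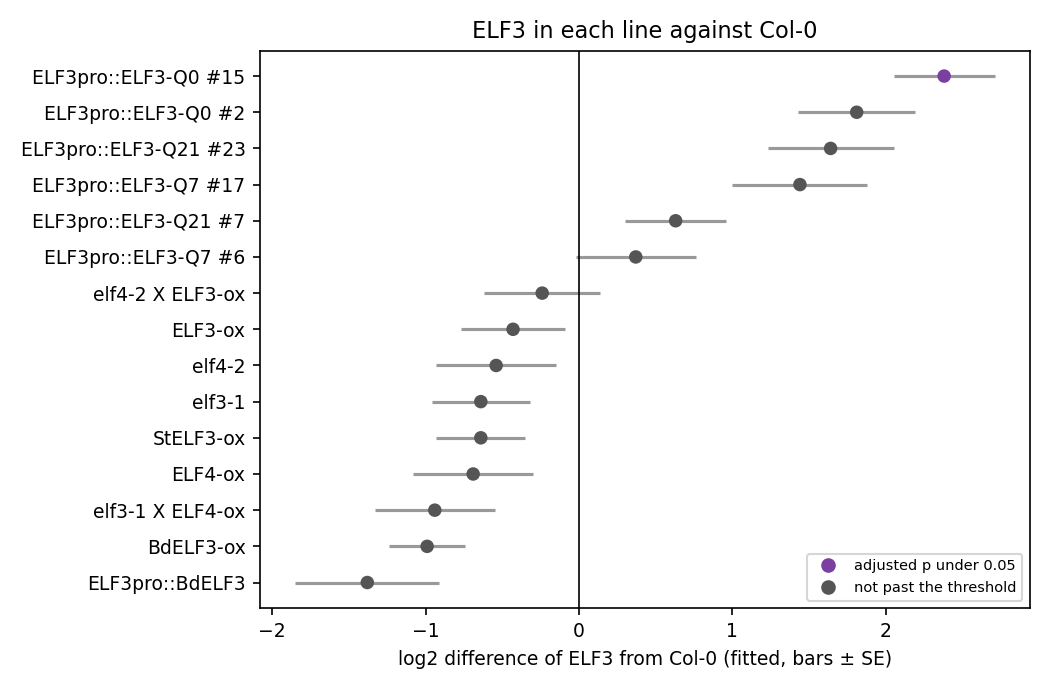
Fitted log2 difference of ELF3 between each line and Col-0, with bars of 1 SE, ordered by size. Q0 line #15, at 2.38, is past the adjusted threshold and lies farthest to the right, and ELF3pro::BdELF3, at -1.38, lies farthest to the left.

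By line, Q0 line #15 differed from Col-0 by a log2 difference of 2.38 ± 0.33 (SE, n = 3 and 3, edgeR adjusted p = 0.00139), in a comparison with 0.0715% of loci called. Without Col-0 27C replicate 2 the adjusted p was 0.121, at a difference of 2.15. Q0 line #2 differed by 1.81 ± 0.38, Q21 line #23 by 1.64 ± 0.41 and Q7 line #17 by 1.44 ± 0.44, with adjusted p of 0.174, 0.534 and 0.696. With DESeq2 Q0 line #2 passed (adjusted p = 0.00690), and both Q0 line #2 and Q21 line #23 did once the 2 root-poor libraries were left out (edgeR adjusted p = 0.00543 and 0.0279). Q21 line #7 at 0.63 ± 0.33 and Q7 line #6 at 0.37 ± 0.39 were closest to Col-0. The raw ratio of means to Col-0 was larger than the fitted fold in each of the 6 lines, 2.18 to 8.96 against 1.3 to 5.22. The Col-0 libraries had the prefixes 181 and 184, the pair with the lowest fitted ELF3 level.

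Because prefixes and lines overlap only in part, the libraries were also set side by side within each prefix and temperature that held both kinds of line. At 22 °C under prefix 177, 5 ELF3pro::ELF3-Q libraries at 52.2 to 188 CPM stood against 2 others at 37.2 and 37.4 CPM. At 27 °C under prefix 177, the library at 352 CPM stood against 6 others at 25.4 to 41.5 CPM. At 22 °C under prefix 178, the library at 118 CPM stood against 3 others at 18.2 to 22.2 CPM. At 27 °C under prefix 184, libraries at 37.0 and 83.1 CPM stood against others at 12.0 and 17.2 CPM. In 4 of 4 such sets the ELF3pro::ELF3-Q libraries lay wholly above the others, by 2.67-, 10.9-, 5.87- and 3.86-fold in geometric means. The same held for 217 loci, 1.11% of those tested.

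Other measures moved with the ELF3pro::ELF3-Q lines as well. Plastid-encoded loci took 4.32 to 6.12% of gene counts in the 13 ELF3pro::ELF3-Q libraries and 1.37 to 4.49% in the other 25. Mitochondrial loci took 0.169 to 0.289% against 0.0416 to 0.205%. Reads that did not align uniquely were 7.30 to 35.1% of all reads against 2.64 to 16.2%. Their part in the ELF3 difference was not tested. A fit that left the plastid and mitochondrial loci out of the totals gave a difference from Col-0 of 1.39 ± 0.32 (edgeR adjusted p = 0.237). The summed root markers, at 148 to 359 CPM, and the summed green markers, at 12640 to 27699.6 CPM, lay within the range of the other lines. Of the 4 green markers, however, RBCS1A was higher by 0.54 ± 0.12 and LHCA1 lower by -0.68 ± 0.16 than in the mean of the other lines (edgeR adjusted p = 0.0131 and 0.0134). In such bulk samples, fewer cells of a type and less RNA per cell cannot be told apart.

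Among the polyglutamine constructs, the Q0 lines had the most ELF3 tags. Q21 was lower than Q0 by a log2 difference of -0.96 ± 0.22 (SE, n = 5 and 5 libraries, edgeR adjusted p = 0.556), with 0.0153% of loci called. The libraries overlapped, since the lower Q0 replicate at 83.1 CPM fell among those of Q21. DESeq2 gave the same difference with an adjusted p of 0.0435, and it was -0.96 with an adjusted p of 0.0403 without BdELF3-ox 27C replicate 2. Q7 was lower than Q0 by -1.19 ± 0.26 (n = 3 and 5, edgeR adjusted p = 1.00), and DESeq2 gave an adjusted p of 0.0313. Q21 and Q7 differed by 0.23 ± 0.27 (n = 5 and 3, edgeR adjusted p = 1.00), with a 95% interval of 0.794- to 1.73-fold, and by -0.10 without the prefix term. Line #23 of Q21 exceeded line #7 by 1.02 ± 0.32 and line #17 of Q7 exceeded line #6 by 1.06 ± 0.40, and line #15 of Q0 differed from line #2 by 0.58 ± 0.31, none past the adjusted threshold in edgeR. With 2 lines a construct, the length of the stretch and the line cannot be told apart.

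In wild type and mutants ELF3 tags were close to each other. Col-0 gave 29.9 CPM at 22 °C and 22.4 and 17.2 CPM at 27 °C. The elf3-1 mutant gave 17.5 CPM at 22 °C and 26.7 CPM at 27 °C, both within the span of the Col-0 libraries. Fitted with the prefixes, elf3-1 differed from Col-0 by -0.64 ± 0.32 (SE, n = 2 and 3, edgeR adjusted p = 0.393), in a comparison in which 0.699% of loci were called. Without the prefix term the difference was -0.06. The elf4-2 mutant, which lacks the partner ELF4, gave 22.2 CPM at 22 °C and 35.7 CPM at 27 °C. ELF4-ox gave 20.1 and 32 CPM and elf3-1 X ELF4-ox 18.2 and 25.4 CPM at these temperatures. None of these lines differed from Col-0 past the threshold in edgeR. The fitted differences of elf4-2 and ELF4-ox, -0.54 ± 0.39 and -0.69 ± 0.39, were 0.32 and 0.17 without the prefix term. That of elf3-1 X ELF4-ox was the largest of these, -0.94 ± 0.39 (edgeR adjusted p = 0.823), 0.522-fold with a 95% interval of 0.295 to 0.924.

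The label ELF3-ox was not matched by a high level of ELF3 3′ tags. ELF3-ox gave 37.2 CPM at 22 °C, 35.1 CPM at 27 °C and 9.42 CPM at 12 °C. Its libraries overlapped those of Col-0, and the fitted difference was -0.43 ± 0.34 (SE, n = 3 and 3, edgeR adjusted p = 1.00), with 0.0306% of loci called. Without the prefix term it was 0.41, of the opposite sign. The cross elf4-2 X ELF3-ox gave 37.4 CPM at 22 °C and 41.5 CPM at 27 °C and differed from ELF3-ox by 0.20 ± 0.31 (n = 2 and 3, edgeR adjusted p = 1.00). Whether the transgene keeps the native 3′ end is not given in the labels, so these tags do not check the overexpression.

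The lines that express ELF3 of another species had the lowest mean levels of native tags, and all their libraries had the prefixes 181 or 184. In the values fitted with the prefixes, elf3-1, elf3-1 X ELF4-ox and ELF4-ox were as low as StELF3-ox or lower. BdELF3-ox gave 13.5 CPM at 22 °C, 13, 5.79 and 12 CPM at 27 °C and 8.32 CPM at 12 °C. All 5 libraries lay below all 3 of Col-0, as did those of 1.93% of loci. The fitted difference was -0.99 ± 0.25 (SE, n = 5 and 3, edgeR adjusted p = 0.109), with 0.204% of loci called, and DESeq2 gave an adjusted p of 0.0188. StELF3-ox gave 15.9 CPM at 22 °C, 16.0 CPM at 27 °C and 9 CPM at 12 °C, all below Col-0, as for 5.68% of loci. Its fitted difference was -0.64 ± 0.29 (n = 3 and 3, edgeR adjusted p = 0.656). ELF3pro::BdELF3 had 1 library, at 9.77 CPM, and a fitted difference of -1.38 ± 0.47 (edgeR adjusted p = 0.0655), with an adjusted p of 0.0351 in DESeq2. It is 1 of the 2 libraries low in root markers. The other, BdELF3-ox 27C replicate 2, was the lowest of all 38 at 5.79 CPM.

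Growth at 27 °C brought no difference in ELF3 tags past the threshold. The fitted difference from 22 °C was 0.10 ± 0.12 (SE, n = 20 and 15 libraries, edgeR adjusted p = 0.560), with a 95% interval of 0.895- to 1.29-fold, in a comparison in which 34.3% of loci were called. Of the 14 lines with both temperatures, 8 had a higher mean at 27 °C and 6 a lower one. The lines elf4-2, ELF4-ox, elf3-1 and elf3-1 X ELF4-ox were higher at 27 °C by log2 differences of 0.69, 0.67, 0.61 and 0.48, but their temperatures had different title prefixes. Col-0 and BdELF3-ox were lower, by -0.59 and -0.40, but their means at 27 °C include libraries of prefix 184, which none at 22 °C had. Within prefix 181, Col-0 gave 22.4 CPM at 27 °C against 29.9 CPM at 22 °C, and BdELF3-ox gave 13 CPM and, in its root-poor library, 5.79 CPM against 13.5 CPM. Within prefix 177, Q0 line #15 gave 352 CPM at 27 °C against 188 CPM at 22 °C. Of the 7 lines with a prefix common to both temperatures, 3 had a higher mean at 27 °C, over all their libraries. In the ELF3pro::ELF3-Q lines alone the difference was 0.53 ± 0.24 (edgeR adjusted p = 0.146).

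The response to 27 °C was 0.75 ± 0.30 (SE) larger, on the log2 scale, in the ELF3pro::ELF3-Q lines than in the others (edgeR adjusted p = 0.310). No locus passed the adjusted threshold for this term (0 of 19587, 0%), and 2559, or 13.1%, had an unadjusted p under 0.05. Without the prefix term it was -0.11, of the opposite sign. At 12 °C the 3 libraries, of ELF3-ox, StELF3-ox and BdELF3-ox, held 9.42, 9 and 8.32 CPM. The same lines held 37.2, 15.9 and 13.5 CPM at 22 °C. All 3 libraries at 12 °C had the prefix 184, which no 22 °C library had. With the prefix term the difference of 12 °C from 22 °C was -0.38 ± 0.32 (n = 3 and 15, edgeR adjusted p = 0.532). Without that term it was -0.95 (edgeR adjusted p = 0.0449).

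The genes on either side of ELF3 were read in the same libraries. The gene just before it, AT2G25920, went the opposite way in part of the ELF3pro::ELF3-Q lines. In Q0 line #2 it had 0 and 1 counts, or 0 and 0.134 CPM. In Q0 line #15 it had 3 to 6 counts, or 0.139 to 0.521 CPM, and in Q21 line #23 0.858 and 1.26 CPM. These are 3 of the 4 lines with the highest ELF3 levels. In the other lines of Q7 and Q21 it stood at 2.40 to 3.38 CPM, overlapping the 2.61 to 6.04 CPM of the 25 libraries outside these constructs. Averaged over the 6 lines it was lower than in Col-0 by a log2 difference of -2.30 ± 0.41 (SE, n = 13 and 3, edgeR adjusted p = 0.0239), 1 of 2 loci (0.0102%) called lower there, and lower than in elf3-1 by -2.27 ± 0.36 (n = 13 and 2, edgeR adjusted p = 0.00129). Leaving out any of 8 single libraries raised the adjusted p against Col-0 to between 0.0565 and 0.118, at differences of -2.58 to -2.01, and without elf3-1 27C replicate 1 that against elf3-1 was 0.138. The 8 were both elf3-1 libraries, both Col-0 libraries at 27 °C, Q0 line #2 27C replicate 1, Q0 line #15 27C replicate 2, Q21 line #7 27C replicate 2 and ELF3-ox 12C replicate 1.

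**Figure D3:**
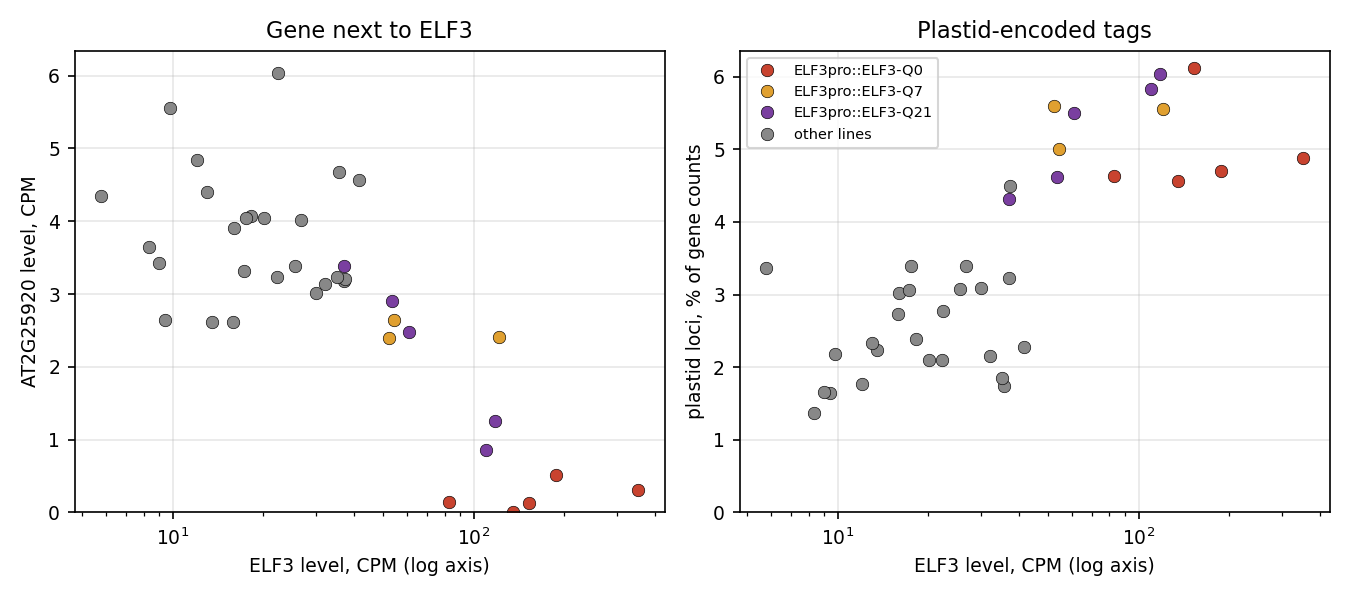
Level of AT2G25920 in CPM (left) and share of gene counts at plastid loci in percent (right) against the ELF3 level in CPM on a log axis, 1 point for each of the 38 libraries, coloured by construct. The Q0 libraries lie at 0.521 CPM of AT2G25920 or less, and the ELF3pro::ELF3-Q libraries at 4.32% plastid counts or more.

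Of 6 protein-coding neighbours, 3 on each side, 5 were abundant enough to test, and AT2G25905 had no count in any of the 38 libraries. AT2G25920 was the 1 neighbour called between the ELF3pro::ELF3-Q lines and Col-0. Against the mean of the other lines AT2G25910 and AT2G25964 were also lower, by -0.43 ± 0.11 and -0.45 ± 0.12 (edgeR adjusted p = 0.0242 and 0.0253), among 2.15% of loci called lower. ALPHA-VPE, a vacuolar processing enzyme gene whose annotated span overlaps the end of ELF3 by 24 bases, stood at 1.03 to 7.17 CPM in the ELF3pro::ELF3-Q libraries and 0 to 3.41 CPM in the others. Its highest value was in the library with the most ELF3 tags. It was not called in any of these comparisons, and the sources used here do not say how reads in the overlap were assigned. The locus AT2G08135, annotated inside ELF3, had 1 count in 1 library and 0 in the other 37.

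Of the loci whose level followed that of ELF3 over the 38 libraries, plastid-encoded ones held the first 3 places. The highest Pearson r in log2 CPM were 0.874 for ATCG01050, 0.863 for ATCG00120, 0.846 for ATCG00560, 0.845 for AT3G41768 and 0.844 for QWRF2. The lowest were -0.853 for SQN, -0.833 for AT5G14230 and -0.811 for AT1G64370. Over the means of the 16 lines the highest were ATCG00490 at 0.937, AT1G29880 at 0.937, ATCG00680 at 0.932, ATCG00710 at 0.924 and PAO4 at 0.919. Of the 50 loci most like ELF3 over libraries, 21 were of the plastid or mitochondrion, and 18 of 50 over line means, where organelle loci made up 0.684% of the 12869 compared. The points share library depth and title prefix, and 13 of the 38 are ELF3pro::ELF3-Q libraries.

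Genes of the ELF3 network, 24 chosen for their known roles, gave 22 that could be tested, while EEC and PRR9 were too low. The list was made with earlier results of these data known, so its counts and medians are no independent test. In elf3-1 against Col-0, 4 rose (0.403% of all loci) and 1 fell (0.296%), and the median over the list was 0.32 against -0.03 over all loci. GI, a clock and flowering gene repressed by the complex, rose by 3.94 ± 0.81 (SE, n = 2 and 3, edgeR adjusted p = 0.0237). PIF5 rose by 2.65 ± 0.44, the clock repressor gene PRR7 by 2.48 ± 0.59 and LUX by 1.55 ± 0.34, with adjusted p of 0.00481, 0.0480 and 0.0354. LHY, a morning clock factor known to act on the ELF3 promoter, fell by 3.43 on the log2 scale (SE 0.71, edgeR adjusted p = 0.0243). With each of the 38 libraries left out in turn, the call held in 37 for PIF5, 33 for LHY, 32 for GI, 30 for LUX and 11 for PRR7. Without the prefix term LUX and LHY were no longer called, at 1.39 and -2.89 (edgeR adjusted p = 0.0763 and 0.0648).

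The ELF3pro::ELF3-Q lines, with 2.60 times the fitted ELF3 tags of Col-0, had none of these 22 genes called against Col-0. Of all loci only 0.0511% were called there, so the lack of calls does not place these genes at the Col-0 level. Their median was -0.17 against -0.01 over all loci, and the fitted log2 differences ran from -0.86 for LUX to 1.05 for CCA1. The intervals were 0.337- to 0.901-fold for LUX, 0.523- to 8.17-fold for CCA1 and 0.188- to 2.2-fold for GI. Against elf3-1, 6 fell (1.10% of all loci were lower) and LHY rose, by 3.65 ± 0.65 (n = 13 and 2, edgeR adjusted p = 0.00373). GI fell by 4.57 on the log2 scale, PIF5 by 3.09, LNK1, a clock gene, by 3.07, PRR7 by 2.70, LUX by 2.41 and PHYB, the photoreceptor that binds ELF3, by 0.99. Without elf3-1 27C replicate 1, GI, LHY, LNK1, PHYB and PRR7 were no longer called, with adjusted p of 0.332 to 0.586, and without elf3-1 22C replicate 1 neither were LNK1 and PHYB, at 0.0633 and 0.157. This comparison and that of elf3-1 with Col-0 share the elf3-1 libraries. At 27 °C, 8 of the 22 rose (17.7% of all loci did) and none fell. They were LUX at 0.89 ± 0.14 and its relative BOA at 0.56 ± 0.07, PIF5 at 1.09 ± 0.18, the ELF4 relatives EFL1 and EFL2 at 0.37 ± 0.14 and 0.41 ± 0.11, FHY3 at 0.20 ± 0.06, COP1 at 0.35 ± 0.08 and PHYB at 0.36 ± 0.10. EFL1 lost the call with DESeq2 (adjusted p = 0.0652) and without any of 18 single libraries, whereas the other 7 kept it in those fits. In the Col-0, elf4-2 and ELF4-ox libraries alone, fitted without the prefix term, none of the 8 was called (edgeR adjusted p = 0.0957 to 0.581). There elf4-2 and ELF4-ox had prefix 178 at 22 °C and 177 at 27 °C, so temperature and prefix cannot be told apart in these lines. In the ELF3pro::ELF3-Q libraries alone EFL1, EFL2, FHY3, COP1 and PHYB were not called (edgeR adjusted p = 0.0668 to 0.234). Tissue markers also moved at 27 °C, where 34.3% of all loci were called, higher and lower together. Of 7 root markers 3 fell, among them IRT1 at -2.77 ± 0.64 and COBL9 at -1.24 ± 0.29, of 4 seed storage markers 2 fell, and of 4 green markers RBCS1A and LHCB1.3 fell, at -0.60 ± 0.09 and -0.71 ± 0.10. Their part in the network genes' difference was not tested. COP1 is a ubiquitin ligase known to act on ELF3, and FHY3 a factor known to activate the ELF3 gene.

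The ELF3 locus was also a place where tagged ELF3 gave peaks. In the deposited lists the authors' MACS2 run gives each peak a width, a fold enrichment and a −log10 p-value. No INPUT list of the lines under the ELF3 promoter was used here, and reads of a transgene copy of the promoter or gene cannot be told apart from those of the native locus. Of the 25 lists, 12 held a peak of at least 4000 bases at ELF3, a width chosen after the lists were seen, and the other 13 held none wider than 1705 bases. Peaks that wide were rare, 53 of the 431335 nuclear peaks of those 12 lists (0.0123%), and in 6 of the 12 the ELF3 peak was the widest of all. Median peak widths were 111 to 284 bases.

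The left edges of the 12 wide peaks lay within 113 bases of each other, between positions 11055288 and 11055401 of chromosome 2. This is 3543 to 3656 bases before the annotated ELF3 start and inside AT2G25920, the gene whose tags are described above. The right edges differed by construct. In 5 lists of ELF3pro::ELF3-MYC, in elf3-1 or elf3-1 x ELF4-ox plants and pulled down with anti-c-Myc, the peak ran on to positions 11063185 to 11063448. It was 7814 to 8140 bases wide, and peaks covered 96.9 to 100% of the gene.

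In 4 lists of ELF3pro::ELF3-BdPrD, pulled down with anti-Flag, the peak ended at positions 11062386 to 11062423 and was 6986 to 7059 bases wide. A second peak began after a gap of 474 to 536 bases, at positions 11062898 to 11062923. The stretch from 11062424 to 11062897, 427 to 900 bases before the gene end, was without a peak in all 4 lists, was covered fully in the 5 ELF3-MYC lists and to 50.2 to 84.8% in the Q15 and Q20 lists. It was also without a peak in 2 of the 3 ELF3pro::BdELF3 lists, 5 of the 7 overexpressor lists and both INPUT lists. In 3 lists of ELF3pro::BdELF3, also with anti-Flag, the peak ended at 11059490 to 11059659 and was 4123 to 4322 bases wide. Peaks covered all 3000 bases before the gene but 15.2 to 20.1% of the gene itself. So the bases before the gene were covered in all 3 constructs, while the share of the gene that was covered fell apart by construct without overlap, at 15.2 to 20.1%, 84.8 to 89.2% and 96.9 to 100%.

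**Figure D4:**
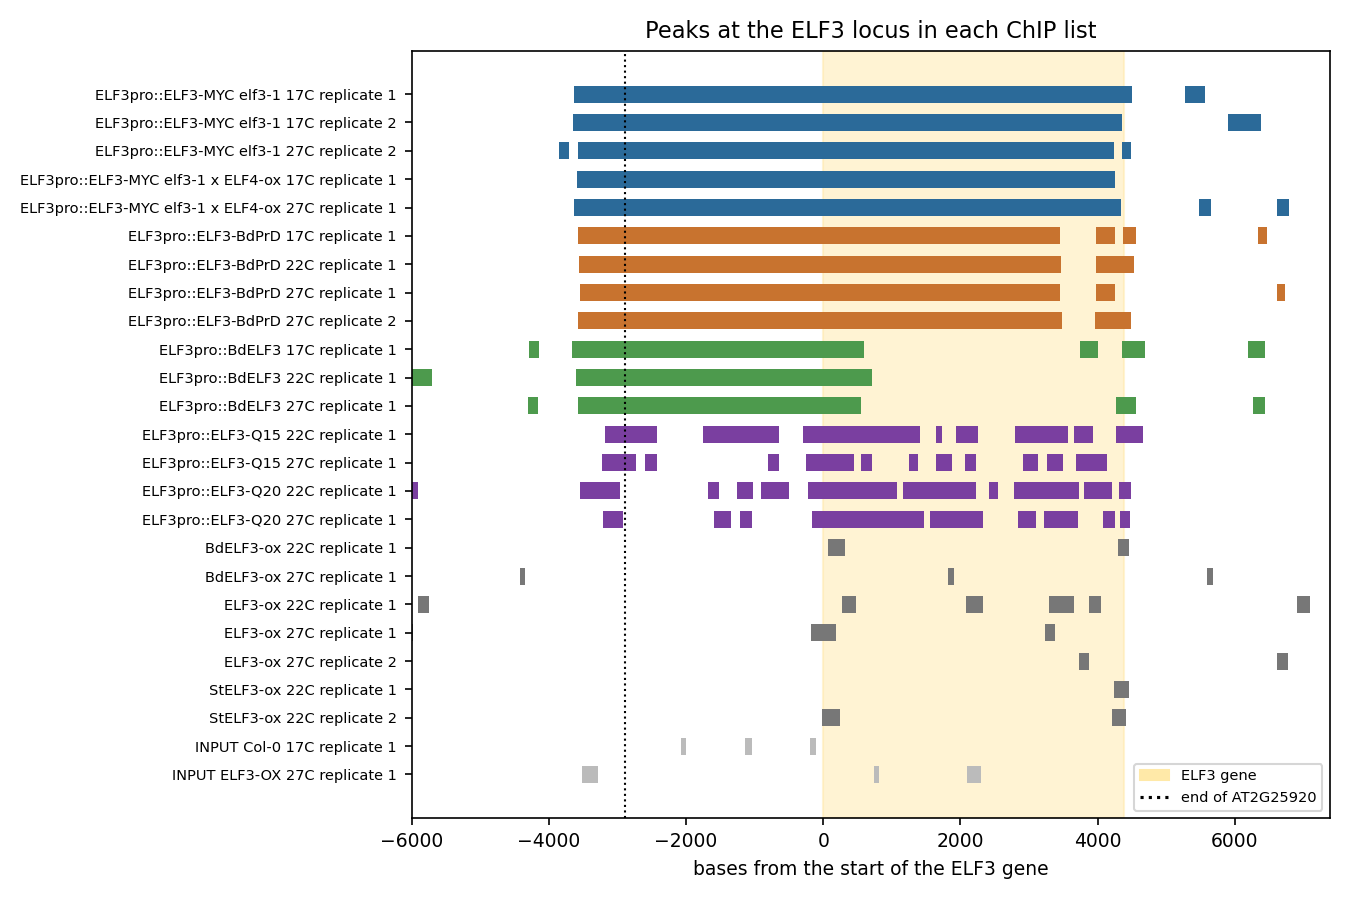
Peaks in each of the 25 ChIP lists, drawn as bars to scale by distance in bases from the start of the ELF3 gene, coloured by construct, with the gene shaded and the end of AT2G25920 dotted. The 12 lists at the top share a left edge 3543 to 3656 bases before the gene, and the 4 ELF3pro::ELF3-Q lists show separate peaks.

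The lists of ELF3pro::ELF3-Q15 and ELF3pro::ELF3-Q20, also under the ELF3 promoter and pulled down with anti-Flag, had no such block. They held 8 to 11 separate peaks in the gene and the 3000 bases before it, covering 46.5 to 84.7% of the gene and 22.3 to 66.0% of the bases before it. Their strongest peak there was 695 to 1705 bases wide with a −log10 p-value of 6.21 to 17.8. In 7 lists of the overexpressors StELF3-ox, BdELF3-ox and ELF3-ox, the strongest peak at ELF3 had a −log10 p-value of 1.63 to 3.72 and was at most 363 bases wide. The INPUT lists of Col-0 and ELF3-OX, which had no pull-down, had 1.38 and 1.97. Values of different lists depend on their depth, which is not given, so they are set side by side only.

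Within its own list, the wide ELF3 peak was among the strongest peaks. No INPUT list of these lines was used and reads of a transgene copy cannot be told apart. The ranks are therefore not a measure of binding at the native locus. By −log10 p it ranked 1, 3 and 1 among 31865 to 34581 nuclear peaks in the ELF3pro::BdELF3 lists at 17, 22 and 27 °C. It ranked 1, 2, 1 and 1 in the ELF3pro::ELF3-BdPrD lists at 17, 22, 27 and 27 °C. In those 7 lists it stood above the peak at GI, a well-known site of the evening complex, which ranked 14 to 1115. In the 5 ELF3-MYC lists the order was the other way, with GI at 1 or 2 and ELF3 at 2 to 13. The ELF3-MYC elf3-1 lists placed ELF3 at 11 and 11 at 17 °C and 2 at 27 °C, and the ELF3-MYC elf3-1 x ELF4-ox lists at 9 at 17 °C and 13 at 27 °C. Ranked by fold enrichment, ELF3 stood at 1 to 5 in the 7 lists and 4 to 31 in the ELF3-MYC lists.

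**Figure D5:**
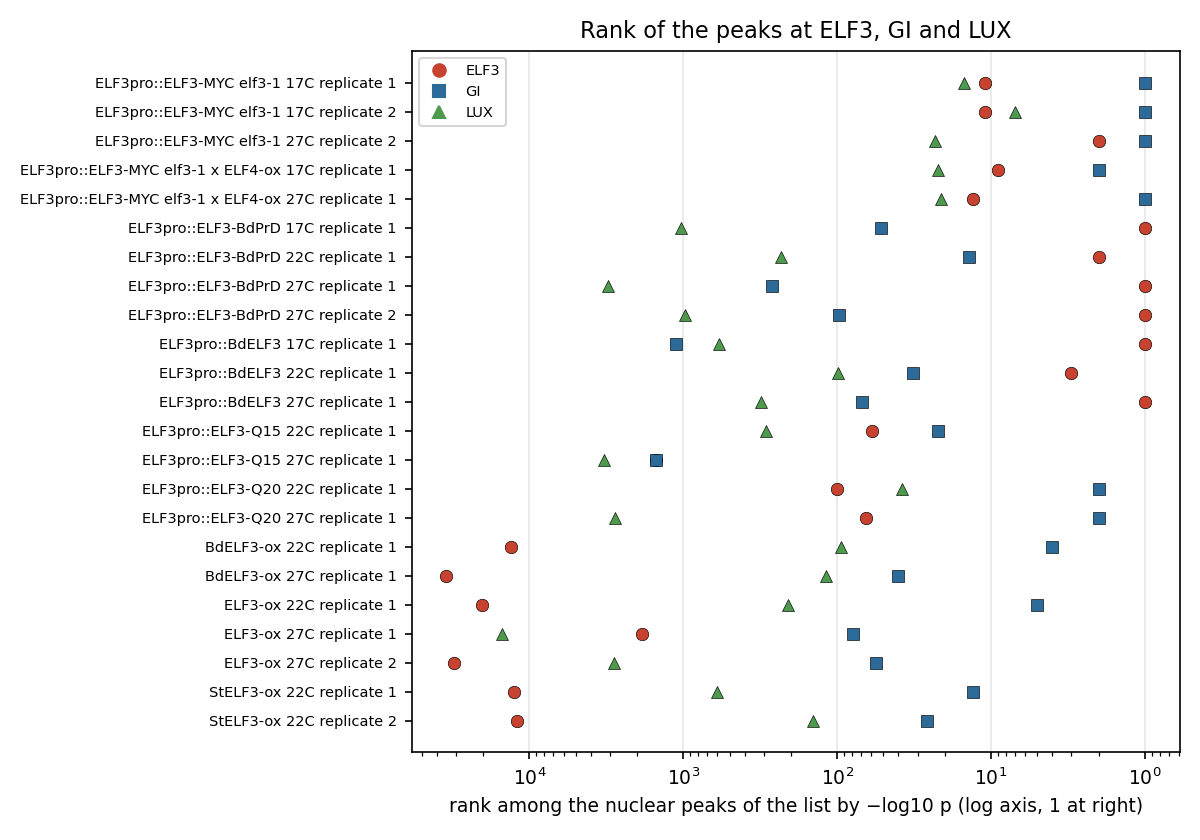
Rank by −log10 p, on a log axis with 1 at the right, of the strongest peak at ELF3 and within 1000 bases of GI and LUX in each of the 23 pull-down lists. ELF3 lies right of GI in the ELF3pro::BdELF3 and ELF3pro::ELF3-BdPrD lists and left of it in the 7 overexpressor lists.

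In the Q15 lists ELF3 ranked 59 at 22 °C and 1504 at 27 °C, and in the Q20 lists 100 and 65. GI ranked 22 and 1513 in the Q15 lists and 2 in both Q20 lists. In the overexpressor lists GI ranked 4 to 79 while ELF3 ranked 1866 to 34640. The summit of the wide peak lay 0 to 500 bases after the annotated ELF3 start in 10 of 12 lists. The exceptions were the ELF3-MYC elf3-1 x ELF4-ox lists, where the distance of the summit from the start was -3403 bases at 17 °C and -147 bases at 27 °C.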

How the data were processed

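RNA was read as 3′ tags (QuantSeq 3′ FWD) in 38 libraries. The submitters' processing notes name STAR and the TAIR10 build, and the authors deposited raw counts per locus. Which tool counted the tags, with what strand setting, and the hour of RNA harvest are not stated in those notes or the labels. ChIP lists were deposited per sample and, per the submitters' processing notes, made with Trimmomatic, Bowtie2, Picard, deepTools and MACS2. The authors' lists give a fold enrichment (a ratio) and a −log10 p-value per peak, and versions and control samples are not given. Among 26 ChIP samples, 25 lists were analysed, and replicate 1 of ELF3pro::ELF3-MYC elf3-1 at 27C is not analysed here.

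The 19587 of 32833 loci that reached 1 CPM in 3 or more libraries were tested with edgeR 4.0.16 (quasi-likelihood, TMM scaling, R 4.3.3) on the counts as deposited, with terms for line, temperature and title prefix and 17 residual degrees of freedom. Benjamini-Hochberg adjustment ran over all loci tested, and calls were made at an adjusted p under 0.05. Of 33 groups of line and temperature, 29 held 1 library, so all libraries shared 1 estimate of the spread. DESeq2 1.42.0, other scaling, no filter, no prefix term and libraries left out were the alternatives. The steps were also run on simulated counts without any prefix effect, so these do not test that term. Of 50 planted 2-fold changes, 50 were recovered for 27 °C and 38 for Q21 against Q0. For the ELF3pro::ELF3-Q lines against Col-0 21 were recovered, for elf3-1 against Col-0 8 and for the difference in 27 °C response 6. Poisson intervals (95%) cover counting error only. Likeness to ELF3 was ranked over loci with a mean of at least 5 CPM. Peaks overlapping the gene or the 3000 bases before it were counted at ELF3, the strongest by −log10 p being taken for its rank among nuclear peaks.

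Symbols and gene limits came from RefSeq's TAIR10.1 table, which matched 32548 loci (99.1%), and its nuclear chromosomes were taken to be those of TAIR10, checked only by chromosome ends. The genes named are ELF3, a list of partners, regulators and targets, 3 neighbours on each side and the loci most like ELF3. The members and lists were chosen with earlier results of these data known.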

Additional observations from a re-analysis of the deposited data

How the results depend on the processing

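No paired analysis was possible because the labels mark every sample as a single replicate, so groups share no replicate numbers from the labels, and the numbers used here only name libraries in order of deposit. The title prefix, which is no replicate number, was a term of the fits. The ELF3pro::ELF3-Q difference from Col-0 passed the threshold with DESeq2 (1.39), without the title prefix term (2.15), without the 2 libraries low in root markers (1.47) and with the mean of the 10 other lines as the reference (2.03). It did not pass with median-of-ratios scaling (1.39, edgeR adjusted p = 0.198), without the filter (1.37, 0.242) or without plastid and mitochondrial loci (1.39, 0.237). With single libraries left out it ran from 1.15 to 1.58 and was called in 1 of 38 fits. Q21 against Q0 passed with DESeq2 (-0.96) and without those 2 libraries (-0.96), and ran from -1.10 to -0.79 with single libraries left out. Without the prefix term the sign turned for ELF3-ox (0.41), elf4-2 (0.32), elf4-2 X ELF3-ox (0.78) and ELF4-ox (0.17) against Col-0, for Q21 against Q7 (-0.10) and for the difference in 27 °C response (-0.11), and the 12 °C difference was called (-0.95, adjusted p = 0.0449). The 27 °C difference of AT2G25910 was 0.00 in Col-0, elf4-2 and ELF4-ox alone, fitted without the prefix term. The cause was not tested. Over single libraries left out, ELF3 kept its sign, at 0.04 to 0.16 for 27 °C, -1.03 to -0.38 for elf3-1, -0.63 to -0.21 for ELF3-ox, and 0.50 to 1.04 for the difference in response, and F across lines was 20.8 to 39.7, called in all 38. A window of 1000 bases, or a minimum width of 2000 bases chosen after seeing the data, left the same number of lists, 12, with a wide peak. Neither could have changed it. All 12 wide peaks reached into the gene, the narrowest had 4123 bases, and the other lists held none wider than 1705. Most lines had 1 library per temperature, and 32 counts of ELF3 in the lowest library limit its precision.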
